A study of Homo sapiens with 24 samples.

Results

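The regions described here opened in both of 2 human diffuse large B-cell lymphoma (DLBCL) lines, OCI-LY3 and VAL, after 8 h of AZD4573, and they lie away from promoters. A region is a stretch of DNA in which ATAC-seq, an assay that marks open chromatin by where a transposase can cut, gave a peak. Members were selected on the calls of the study: the same coordinates had to stand in the list of regions with increased accessibility at 8 h in VAL and in that of OCI-LY3, and not in both lists for 3 h. A member also had to lie more than 1 kb from the transcription start site (TSS) of any basic transcript of the GENCODE annotation. In all, 2327 regions opened in both lines at 8 h, 1712 of them were not in both 3 h lists, and 832 of those 1712 (48.6%, 95% Wilson interval 46.2 to 51.0) were away from promoters. The 8 deposited lists name 26369 distinct regions.

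AZD4573 is an inhibitor of CDK9, and cells received 30 nM for 0, 3 or 8 h, so the control of each line is its own 0 h group, which the deposited list names call DMSO. Each line and time had 4 libraries, 24 in all, of which by the labels 2 came from 50000 cells by standard ATAC-seq and 2 from 5000 cells by Fast-ATAC, a variant of the protocol for blood cells. Both lines are immortalised cultures, and nothing in the labels says whether replicates came from separate cultures. The lists hold coordinates alone, so the size of each change, the depth and the spread between libraries are unknown here. The 3 h and 8 h calls of a line share its 0 h libraries.

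CDK9 is the kinase of P-TEFb, which releases RNA polymerase II from pausing near the TSS. Inhibiting it silences short-lived transcripts first, and some genes are transcribed again later. Open chromatin away from promoters commonly marks enhancers, where transcription factors bind short motifs, and in B cells these include Oct-2 at the octamer, the ETS factors PU.1 and Spi-B, the interferon regulatory factors and NF-kB.

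The sequences below show members that hold a motif compared further on. All are hg19, read on the forward strand, with 60 bases on each side of the match in capitals. Further copies of the motif within a printed stretch, as in those of JUNB and KLF6, are left in lower case. The first 3 are those, of the members considered for display, with a match to GGGCGG, the core bound by SP and KLF factors, whose nearest protein-coding gene is on a gene list used below and whose printed stretch lies in no exon.

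JUNB, chr19:12900535-12900660: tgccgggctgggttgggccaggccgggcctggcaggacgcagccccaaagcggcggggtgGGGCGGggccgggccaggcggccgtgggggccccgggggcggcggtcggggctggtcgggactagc
S1PR2, chr19:10346855-10346980: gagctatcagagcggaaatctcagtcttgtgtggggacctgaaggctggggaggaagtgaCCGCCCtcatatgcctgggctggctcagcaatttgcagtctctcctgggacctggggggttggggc
KLF6, chr10:4191585-4191710: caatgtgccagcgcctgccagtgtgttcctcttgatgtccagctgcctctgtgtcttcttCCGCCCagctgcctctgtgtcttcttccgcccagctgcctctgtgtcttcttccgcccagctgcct

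The JUNB member lay 1100 bp from a TSS of the gene and the S1PR2 member 4455 bp, while the KLF6 member lay 363795 bp from a TSS of the nearest protein-coding gene. The next 3 hold the octamer ATGCAAAT and are, of the members considered for display, those with this match outside exons that lie closest to a protein-coding TSS. They and the 3 after them were chosen after their values were seen.

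UNC13B, chr9:35159268-35159395: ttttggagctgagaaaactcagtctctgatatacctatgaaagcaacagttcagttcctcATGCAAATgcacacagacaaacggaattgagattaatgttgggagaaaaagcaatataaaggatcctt
ABI3, chr17:47291322-47291449: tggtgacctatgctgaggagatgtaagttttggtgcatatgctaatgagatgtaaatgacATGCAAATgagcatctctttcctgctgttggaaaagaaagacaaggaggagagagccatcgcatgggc
ENSG00000284188, chr1:244899003-244899130: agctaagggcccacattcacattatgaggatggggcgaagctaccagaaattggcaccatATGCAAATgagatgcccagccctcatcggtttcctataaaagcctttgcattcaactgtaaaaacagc

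These 3 lay 2020, 2855 and 3803 bp from the named genes. The last 3 hold a match to AP-1 (TGACTCA or TGAGTCA), to NFkB and to IRF, and show such matches in members whose nearest gene is on a list.

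PPP1R15A, AP-1, chr19:49379632-49379758: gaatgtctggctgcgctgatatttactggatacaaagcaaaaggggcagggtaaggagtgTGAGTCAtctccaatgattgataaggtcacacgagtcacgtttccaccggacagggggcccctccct
SOCS3, NFkB, chr17:76362774-76362903: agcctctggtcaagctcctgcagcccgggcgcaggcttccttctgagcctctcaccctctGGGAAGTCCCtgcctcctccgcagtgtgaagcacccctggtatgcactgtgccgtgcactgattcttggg
DNMT3A, IRF, chr2:25524704-25524835: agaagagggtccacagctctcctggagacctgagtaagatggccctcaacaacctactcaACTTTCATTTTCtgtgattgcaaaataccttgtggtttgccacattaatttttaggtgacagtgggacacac

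The name "later" was checked against the 3 h lists. Of the 832 members, 265 (31.9%) were already listed as increased at 3 h in VAL and 105 (12.6%) in OCI-LY3, and 462 were in neither 3 h list. All 832 are by the rule in both 8 h lists. For comparison, 42.2% of all 26369 listed regions were increased in VAL and 16.6% in OCI-LY3 after 8 h, and 13.4% and 7.02% after 3 h. The rule used these calls, so nothing is read from the difference. No member stood in any of the 4 lists of decreased regions. By these calls the members are late in at least 1 line, and 265 of them were called at 3 h in VAL and not in OCI-LY3. A region absent from a 3 h list may have changed by less than the threshold, so the lists do not show when it began to open. The members in the VAL 3 h list had a median width of 1319 bp and a median GC content of 55% in the central 200 bp, against 1203 bp and 53% for those in neither 3 h list.

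Members clustered little. Joining members within 10 kb of each other left 765 loci, of which 60 held 2 or more members and 6 held 3 or more. The largest run was 4 members within 7393 bp (chr19:10346462-10353854) between S1PR2, a receptor that confines B cells to the germinal centre, and MRPL4, a mitochondrial ribosomal protein. All 4 were in the VAL 3 h list and none in the OCI-LY3 3 h list. A run of 3 had POU2F2, the gene of Oct-2, as nearest gene (chr19:42612646-42627619), at 8952, 16957 and 23089 bp from its TSS. Other runs of 3 lay nearest to EHD1 and CDC42BPG, to LHX3 and QSOX2, and to NPIPB11. NPIPB11 belongs to a family of near-identical copies, so reads there could be shared among copies, although reads without a unique alignment were removed by the authors.

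Members were compared with 2 other sets of regions more than 1 kb from a TSS. The first set comprised 952 regions that closed in both lines at 8 h. The second comprised 4702 regions that opened at 8 h in VAL and were in no OCI-LY3 list. Regions lie along shared chromosomes and are not replicates, so p-values and intervals cover counting error over regions only, and the number of autosomes in the same direction is given.

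Members lay closer to genes than the closed regions did. The median distance from the edge of a member to the nearest TSS was 8610 bp (quartiles 4241 and 17108), against 19562 bp in closed regions and 10962 bp in VAL-only regions. Within 5 kb of a TSS stood 254 of 832 members (30.5%) and 13.3% of closed regions, an odds ratio of 2.85 (95% interval 2.25 to 3.61, two-sided Fisher exact test with p adjusted to 7.77e-18 over 8 tests of location, 15 of 19 autosomes). Against the 24.5% of VAL-only regions the odds ratio was 1.36 (1.15 to 1.59, adjusted Fisher exact p = 0.000377, 15 of 22 autosomes). The comparison with closed regions covers 19 autosomes because chromosomes 16, 17 and 22 held 0 closed regions of this set.

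**Figure D1:**
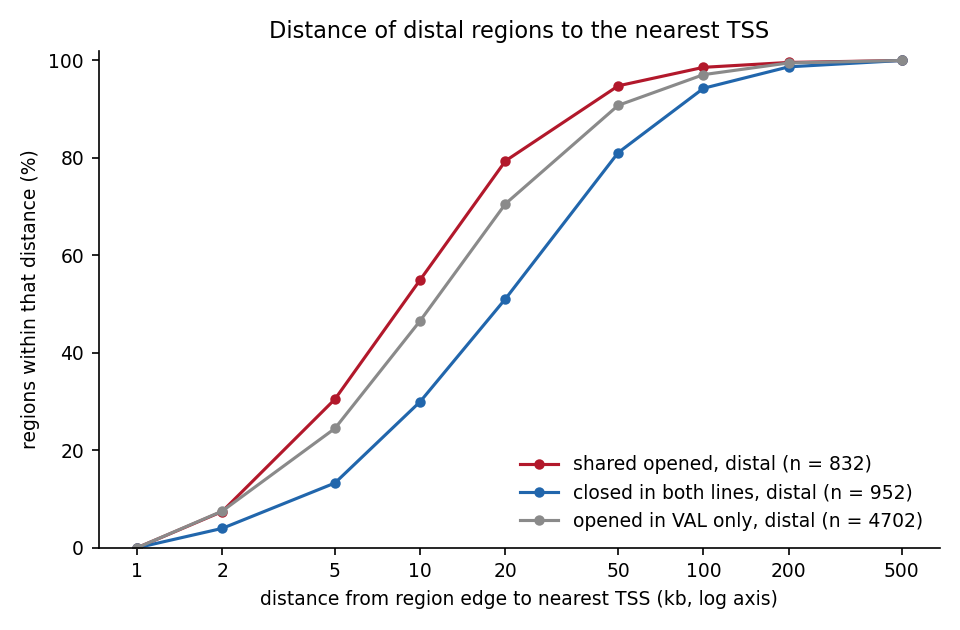
Share of regions (vertical axis, percent) whose edge lies within a given distance of the nearest TSS (horizontal axis, kb, log scale), for the 832 members, 952 closed and 4702 VAL-only regions, with no error bars. By 10 kb the members reach 55%, the VAL-only regions 46.6% and the closed regions 30%.

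Most members lay in genes. Introns alone held 403 members (48.4%), coding exons were touched by 150 (18.0%), other exons by 46 (5.53%), and 233 (28.0%) were outside genes. The share inside a gene was 72.0% in members and 58.6% in closed regions, an odds ratio of 1.81 (1.49 to 2.21, adjusted Fisher exact p = 6.39e-09, 16 of 19 autosomes). It was 65.5% in VAL-only regions (odds ratio 1.35, 1.15 to 1.59, adjusted Fisher exact p = 0.000377, 17 of 22 autosomes). An exon was touched by 23.6% of members and 12.1% of closed regions (odds ratio 2.24, 1.74 to 2.88, adjusted Fisher exact p = 5.40e-10, 15 of 19 autosomes), whereas the 21.7% of VAL-only regions did not differ past the threshold (odds ratio 1.12, 0.937 to 1.33, adjusted Fisher exact p = 0.237). Without chromosome 19 that difference passed it (odds ratio 1.22, adjusted Fisher exact p = 0.0407). Relative to the direction of the nearest transcript, 506 members (60.8%) lay downstream of its TSS, against 52.0% of closed and 56.8% of VAL-only regions.

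The members ran from 370 to 2991 bp in width, with a median of 1234 bp. The widest, at 2991 bp, was on chromosome 20 (chr20:55890504-55893494), 3153 bp from MIR4325 and 11365 bp from SPO11, the gene of the meiotic break-forming protein. Next were a region of 2989 bp on chromosome 16 (chr16:89104140-89107128), 53132 bp from ACSF3, and a region of 2971 bp whose nearest protein-coding gene was ANKRD46. The 3 members farthest from any TSS were a region 393011 bp away on chromosome 18 (chr18:38445796-38446749), another 248057 bp away on chromosome 10 (chr10:42395939-42396940) and one 234084 bp away on chromosome 9 (chr9:118267788-118269693). Their GC contents, 39.5%, 35.3% and 39.0% over the whole region, were below the lower quartile of the members (48.0%). The methods of the authors name no removal of regions prone to artefact signal, and none was made here. Whether such regions are among the members, these 3 included, was not tested.

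At the limit of 1 kb that the rule sets, the closest members lay 1014, 1037 and 1052 bp from the TSS of UNC93B5, LINC02908 and SPRING1. Regions left out just inside the limit lay 992 and 994 bp from ARHGEF2 and LINC02691. Few regions were near the limit, with 62 members at up to 2 kb and 67 regions left out at 1 to 1000 bp, against 813 left out because a TSS lay inside them. Counting the TSS of transcripts not tagged basic would remove 126 members.

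Members were rich in G and C. The median GC content of the central 200 bp was 54.0% (quartiles 47.9 and 60.5) in members, 54.0% in VAL-only regions (46.0 and 61.5) and 41.5% in closed regions (37.0 and 47.5). CpG islands, the unmethylated stretches typical of promoters, were rare among members, however. A window with GC above 50% and an observed over expected CpG ratio above 0.6 was found in 31 members (3.73%), in 1.16% of closed regions (odds ratio 3.22, 1.63 to 6.36, adjusted Fisher exact p = 0.000502, 9 of 19 autosomes) and in 10.8% of VAL-only regions. The odds ratio of members to VAL-only regions was 0.326 (0.225 to 0.470, adjusted Fisher exact p = 1.54e-11, 21 of 22 autosomes). The later shared opened regions at promoters, which the rule set apart by distance to a TSS, had a median CpG ratio of 0.805 against 0.217 in members.

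**Figure D2:**
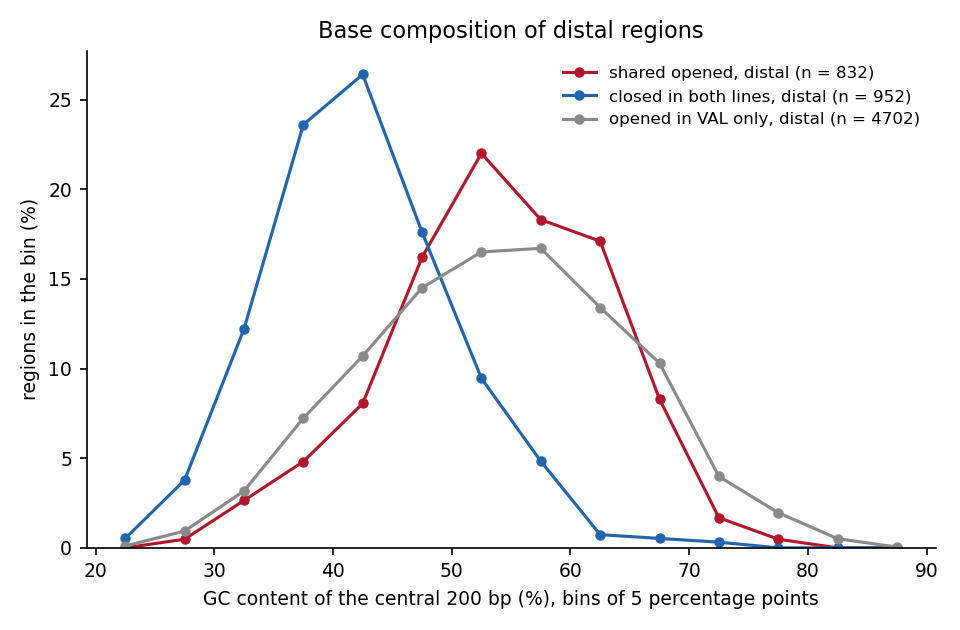
Share of each set (vertical axis, percent) by GC content of the central 200 bp (horizontal axis, percent, bins of 5 percentage points), with no error bars. Members peak at 50 to 55% GC with 22% of regions, and closed regions at 40 to 45% with 26.4%.

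The members concentrated on a few chromosomes. Chromosome 19 held 114 members (13.7%), although it holds 7.35% of protein-coding genes, and had 1.93 members per Mb, the highest density of all chromosomes. Chromosome 1 held 88, chromosome 16 held 75, chromosome 17 held 72 and chromosome 22 held 42. Chromosomes 16, 17, 19 and 22 together, grouped after their values were seen, held 303 members (36.4%), 1422 VAL-only regions (30.2%) and 1 closed region (0.105%), beside 19.8% of protein-coding genes. The same split ran through the lists behind the members, for these chromosomes held, after 8 h, 36.6% of the increased and 0.583% of the decreased regions of VAL. In OCI-LY3 they held 30.1% and 1.76%. These chromosomes make up 9.11% of the length of the reference, so they are dense in genes, and the part of gene density in the split was not tested.

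**Figure D3:**
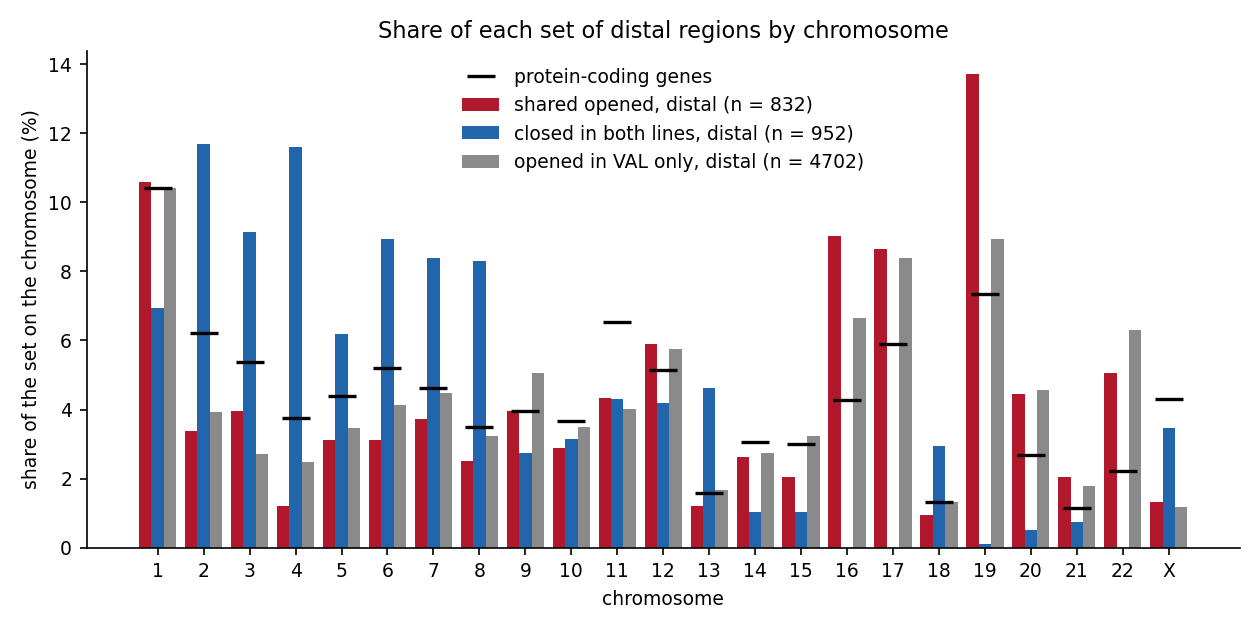
Share of each set on each chromosome (vertical axis, percent; horizontal axis, chromosomes 1 to 22 and X) as bars for members, closed and VAL-only regions, with black marks for the share of protein-coding genes. Members reach 13.7% on chromosome 19, while closed regions reach 11.7% on chromosome 2 and are at 0 on chromosomes 16, 17 and 22.

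Sequence was searched for 16 motifs on both strands of the central 200 bp. No match to any of them was found in 548 members (65.9%), which says only that these letters were not in that window. The most frequent was GGGCGG, in 103 members (12.4%), followed by RUNX (TGTGGTT) in 38 (4.57%), AP-1 in 36 (4.33%), the octamer in 35 (4.21%), the E-box CACGTG in 32 (3.85%) and the heat shock element in 30 (3.61%). Over all 26369 listed regions these shares were 19.2%, 4.85%, 3.66%, 2.79%, 3.63% and 4.12%. Unlike the members, all listed regions include those at promoters, and GGGCGG was in 50.2% of the later shared opened promoter regions. CRE (TGACGTCA) and CEBP (TTGCGCAA) were in 0 members, and ETS (CCGGAAGT), YY1 (AAGATGGC), NRF1 and MEF2 in 1 to 6 members each, against 0.406%, 0.0341%, 1.18%, 1.46%, 0.231% and 0.641% of all listed regions in this order.

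The octamer was more frequent in members than in VAL-only regions. It was present in 4.21% of members (95% Wilson interval 3.04 to 5.79) and in 1.47% of VAL-only regions (1.16 to 1.85), an odds ratio of 2.97 (1.97 to 4.48, adjusted Fisher exact p = 2.25e-05 over 32 motif tests, 15 of 22 autosomes). Both sets had the same median GC content. In the 140 distal regions opened in both lines at both times it was in 5 (3.57%), a share near that of the members, and this difference was not tested. Within the class of lowest GC, below 44.5%, the octamer was in 15 of 118 members (12.7%) and 29 of 979 VAL-only regions (2.96%), and in the 3 classes above it was also more frequent in members. Only the class of highest GC went the other way, with 0 of 136 members and 5 of 1015 VAL-only regions.

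Closed regions held the octamer as often as members did, at 4.2% (odds ratio 1.00, 0.633 to 1.59, adjusted Fisher exact p = 1). They are poorer in GC, however, and in each of 5 GC classes the share was higher in members, for example 12.7% against 4.23% between 38.5% and 44% GC. Stratified by these classes the odds ratio was 2.17 (Mantel-Haenszel, adjusted p = 0.0373). Of the 35 members with an octamer in the window, 22 were in neither 3 h list, 9 in the VAL 3 h list and 4 in the OCI-LY3 3 h list, which is 4.76%, 3.40% and 3.81% of each class.

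GGGCGG was found in 12.4% of members and 3.78% of closed regions, an odds ratio of 3.56 (2.41 to 5.26, adjusted Fisher exact p = 1.71e-10, 17 of 19 autosomes). This difference did not hold within classes of base composition: stratified over 5 GC classes the odds ratio turned to 0.739 (Mantel-Haenszel, adjusted p = 0.475). Against the 16.1% of VAL-only regions it was less frequent in members (odds ratio 0.739, 0.593 to 0.921, adjusted Fisher exact p = 0.0315, 12 of 22 autosomes). That call did not hold within GC classes (0.8, Mantel-Haenszel, adjusted p = 0.271), without chromosome 19 (0.759, adjusted Fisher exact p = 0.0958) or with neighbours within 10 kb reduced to 1 region (0.762, adjusted Fisher exact p = 0.0972).

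IRF and SpiB, motifs of lymphoid regulators, were scarce in members. With 1 mismatch allowed, IRF matched 10 members (1.2%) and 85 closed regions (8.93%), an odds ratio of 0.130 (0.0678 to 0.248, adjusted Fisher exact p = 5.35e-13, 16 of 19 autosomes). Within GC classes the odds ratio was 0.190 (Mantel-Haenszel, adjusted p = 4.76e-05), and IRF was less frequent in members in all 5 classes. SpiB matched 11 members (1.32%) and 46 closed regions (4.83%), an odds ratio of 0.273 (0.142 to 0.524, adjusted Fisher exact p = 0.000150, 12 of 19 autosomes), but within GC classes its call was lost (0.361, Mantel-Haenszel, adjusted p = 0.175). Against VAL-only regions neither passed the threshold, with 1.94% for IRF (odds ratio 0.643, 0.338 to 1.22, adjusted Fisher exact p = 0.430) and 1.47% for SpiB (0.933, 0.498 to 1.75, adjusted Fisher exact p = 1). Over all listed regions IRF matched 3.45% and SpiB 2.28%.

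CTCF, the insulator protein, had a match in 18 members (2.16%), in 4.25% of VAL-only regions (odds ratio 0.510, 0.315 to 0.826, adjusted Fisher exact p = 0.0226, 16 of 22 autosomes) and in 3.15% of closed regions (0.687, 0.383 to 1.23, adjusted Fisher exact p = 0.482). The share over all listed regions was 4%. The call against VAL-only regions was lost over whole regions, with an odds ratio of 0.864 (adjusted Fisher exact p = 0.389), and without chromosome 19 (0.534, adjusted Fisher exact p = 0.0592).

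AP-1 and NFkB, motifs of inducible factors, did not pass the threshold in the central window. AP-1 was in 4.33% of members, 6.30% of closed regions (odds ratio 0.676, 0.443 to 1.03, adjusted Fisher exact p = 0.262) and 3.89% of VAL-only regions (1.13, 0.785 to 1.62, adjusted Fisher exact p = 0.783). NFkB was in 8 members (0.962%), in 0.315% of closed regions (2.80, 0.803 to 9.74, adjusted Fisher exact p = 0.369) and in 0.744% of VAL-only regions (1.36, 0.639 to 2.88, adjusted Fisher exact p = 0.783). Over whole regions NFkB matched 45 members (5.41%), 1.16% of closed and 2.85% of VAL-only regions, with odds ratios of 4.73 (adjusted Fisher exact p = 1.02e-06) and 1.96 (adjusted Fisher exact p = 0.00138). Over whole regions AP-1 passed in opposite directions, in 20.9% of members, 25.9% of closed regions (0.755, adjusted Fisher exact p = 0.0317) and 16.9% of VAL-only regions (1.3, adjusted Fisher exact p = 0.0178). VAL-only regions are narrower than members, with a median of 988 bp, and closed regions wider, with 1344 bp, so whole regions give a motif unequal room.

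**Figure D4:**
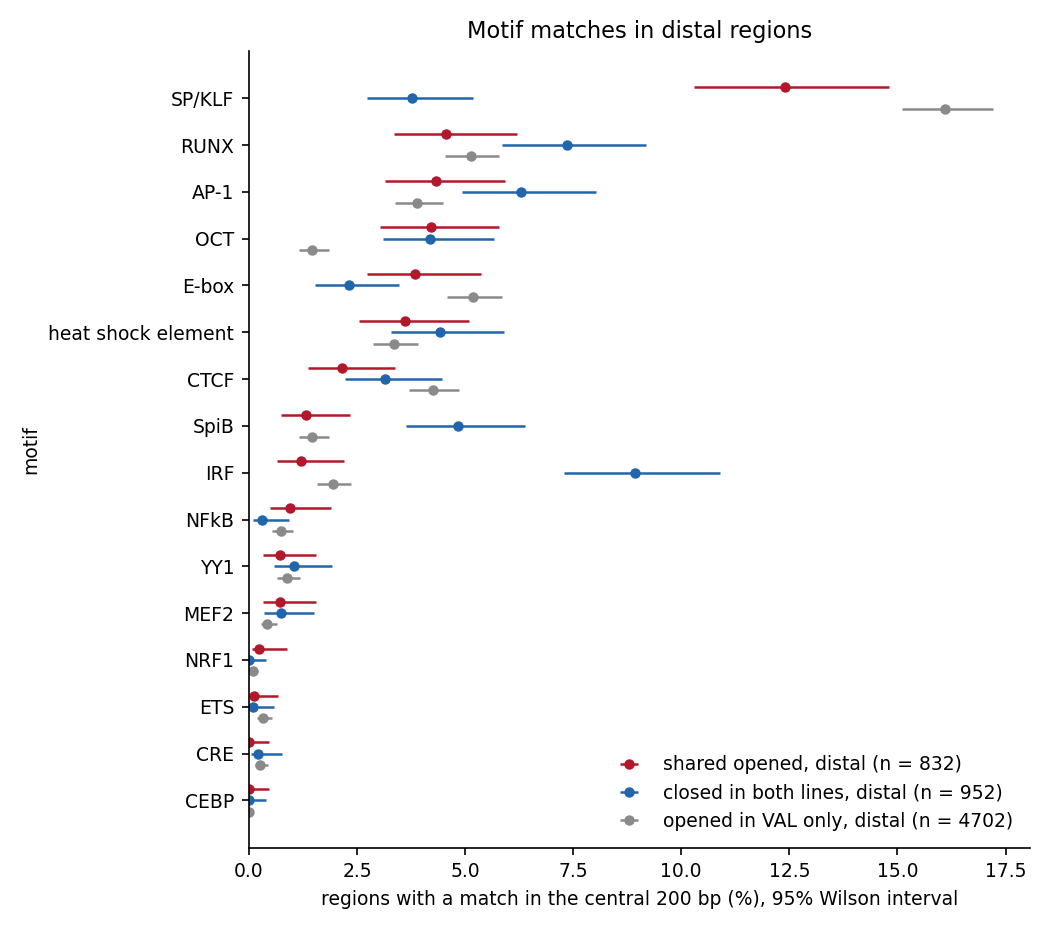
Share of regions with a match in the central 200 bp (horizontal axis, percent) for each of 16 motifs (vertical axis) in members, closed and VAL-only regions, with 95% Wilson intervals over regions as bars. The octamer (OCT) sits at 4.21% in members and 1.47% in VAL-only regions, and IRF at 1.2% in members and 8.93% in closed regions.

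The members were then placed beside genes, which says where a region lies and not which gene it acts on. The nearest protein-coding gene differed for most members: 709 genes were nearest to at least 1 member, 616 of them to exactly 1 and 25 to 3 or more. Of the 832 members, 153 (18.4%) had as nearest gene one whose own promoter region opened in both lines at 8 h. This share was 10.0% in VAL-only and 0.525% in closed regions, and 7.44% of all protein-coding genes had such a promoter; it rests on the same 8 h calls as the rule and is a description.

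KCNN3, the gene of a calcium-activated potassium channel, was nearest to the most members, with 5 between 7774 and 55870 bp from its TSS, 4 of them in its introns. Next with 4 each were ACSF3, a mitochondrial acyl-CoA synthetase, BRD1, a bromodomain protein of histone acetyltransferase complexes, and GSE1. The members nearest to GSE1 lay upstream, at 7786 to 165738 bp, and those nearest to BRD1 were far, at 58479 to 441203 bp. The rest of the 25 genes nearest to 3 or more members tied at 3, and the first of them by symbol were AHDC1, BCR (known from its fusion to ABL1), CXXC5, the formin FMNL3, FRMD8 and the stress gene GADD45B. The promoter regions of KCNN3, FRMD8 and GADD45B were also open in both lines at 8 h, and those of the other 7 genes named here were not called in both.

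The 15 lists of genes used here were chosen with results of these data known, so their shares are a description and carry no test. A member lay within 50 kb of a TSS for 1425 of 20149 protein-coding genes (7.07%). For the 310 genes on the 15 lists it was 53 (17.1%), through 46 distinct members, and 13 of the 15 lists were above the share of all genes. Both shares differed by chromosome: on chromosomes 16, 17, 19 and 22 the shares were 37.8% of 74 listed and 16.8% of all genes, and elsewhere 10.6% of 236 listed and 4.69% of all genes. A member counted for a listed gene was in some cases nearest to another protein-coding gene.

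**Figure D5:**
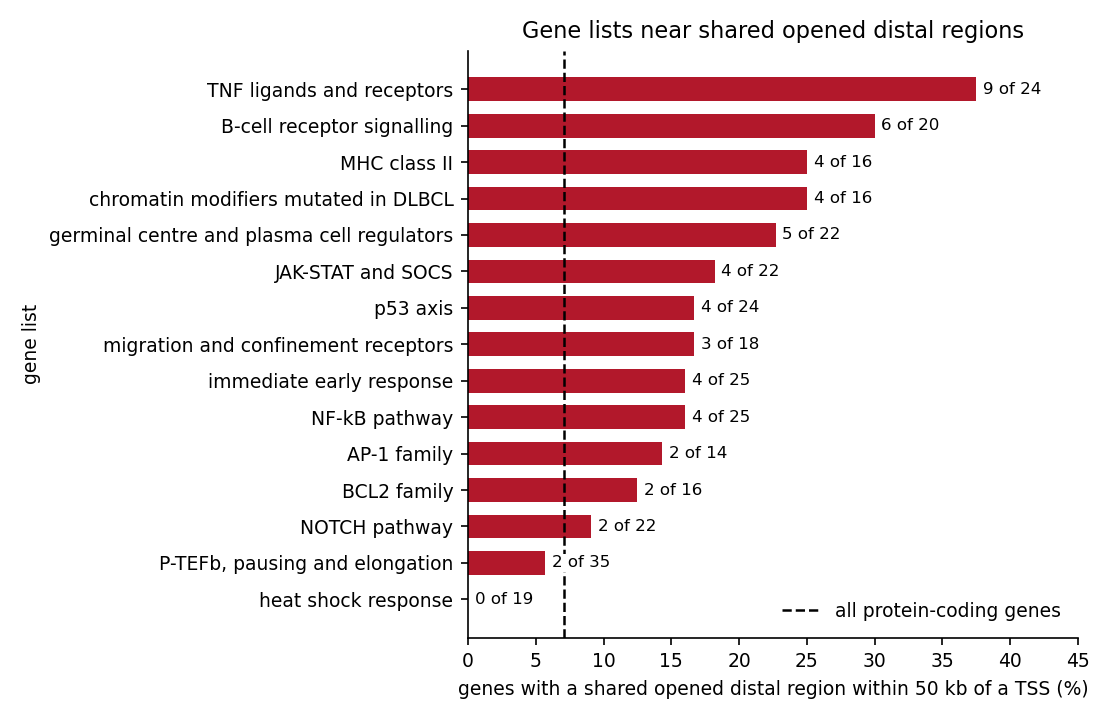
Share of the protein-coding genes of each list with a member within 50 kb of a TSS (horizontal axis, percent, counts printed beside each bar); the dashed line is the 7.07% of all protein-coding genes. TNF ligands and receptors reach 9 of 24 genes, and the heat shock response 0 of 19.

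TNF ligands and their receptors, which carry survival and death signals between lymphocytes, had the highest share, with 9 of 24 genes (37.5%) but only 6 distinct members. A member of 1028 bp lay 1833 bp from TNFRSF4 (OX40), a costimulatory receptor, and 9394 bp from its neighbour TNFRSF18, and was in the VAL 3 h list. TNFRSF13B (TACI), a receptor for BAFF and APRIL, had a member at 3505 bp that was in neither 3 h list. TNFRSF1A, the main TNF receptor, had a member at 11072 bp. A single member of 1984 bp (chr6:31526640-31528623) served LTA, TNF and LTB, the lymphotoxin and TNF genes, at 11208, 14719 and 21578 bp, so these 3 genes are 1 observation.

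B-cell receptor signalling had 6 of 20 genes (30.0%), each through its own member. CD79B and CD79A, the signalling chains of the receptor, had members at 3975 and 10387 bp, and the promoter region of each was open in both lines at 8 h. PIK3CD, the lymphocyte PI3-kinase catalytic subunit, held a member in its gene at 8049 bp from a TSS, and CD72, an inhibitory coreceptor, had one at 18422 bp. Of these 4, the members of CD79B, PIK3CD and CD72 were in the OCI-LY3 3 h list and not in that of VAL. Of the 6 members, only that of PIK3CD had the listed gene as its nearest protein-coding gene.

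Germinal centre and plasma cell regulators had 5 of 22 genes (22.7%), each with its own member. TCF3, the E-protein E2A, had a member inside the gene at 3147 bp, and IRF8, an interferon regulatory factor of germinal centre B cells, had one at 4581 bp (chr16:85941900-85942851). XBP1, the secretory regulator of plasma cells, had a member at 7165 bp and POU2F2 one at 8952 bp. The IRF8 member was in the OCI-LY3 3 h list, those of TCF3 and XBP1 were in the VAL 3 h list, and that of POU2F2 was in neither.

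Receptors of B-cell migration and confinement had 3 of 18 genes (16.7%). ARHGEF1, a signalling partner of confinement receptors, shared with CD79A the member that lies in it at 3247 bp from its TSS. S1PR2 had 5 members within 50 kb, the nearest at 4455 bp, the most of the genes on the lists. CXCR5, the follicle homing receptor, held a member at 7960 bp that was in the OCI-LY3 3 h list.

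NF-kB pathway genes had 4 of 25 (16%). RELB had a member at 1697 bp and 3 within 50 kb, NFKB2, the partner of RELB, held one at 3712 bp, and BCL3, a nuclear co-regulator, held one of 2175 bp at 3677 bp. TRAF3, which restrains alternative NF-kB signalling, held one at 20633 bp. Only the RELB member was in a 3 h list, that of VAL.

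AP-1 genes had 2 of 14 (14.3%) and immediate early genes 4 of 25 (16%). The JUNB member shown above (chr19:12900078-12901200) was in the VAL 3 h list, and that of MAFF, a small MAF factor, lay 38210 bp away. PPP1R15A (GADD34), which restarts translation after stress, held a member at 2379 bp in which an AP-1 match stands, and GADD45B had one at 14522 bp. IER2 and EGR3 had members at 15205 and 25073 bp. The members of PPP1R15A, GADD45B and EGR3 were in the VAL 3 h list, and none of these 4 was in that of OCI-LY3.

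The BCL2 family had 2 of 16 genes (12.5%), both pro-apoptotic, and the p53 axis 4 of 24 (16.7%). BBC3 (PUMA), which is on both lists, had a member at 3804 bp in the VAL 3 h list, and BAD held one at 13417 bp. FDXR, a mitochondrial p53 target, held a member at 2522 bp, CDKN1A (p21), the cell cycle inhibitor, had one at 8444 bp, and AEN had one at 24355 bp. The promoter regions of BAD and CDKN1A were open in both lines at 8 h and that of BBC3 was not called in both.

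JAK-STAT and SOCS genes had 4 of 22 (18.2%) through 3 members. The member at 6024 bp from SOCS3, the feedback inhibitor of cytokine signalling, holds the NFkB match printed above and was in the VAL 3 h list. STAT5B and STAT5A shared a member, at 26797 and 37953 bp, and TYK2 had one at 44116 bp. Among NOTCH genes, JAG2, a ligand, held a member at 2413 bp and DTX1, a modulator of the pathway, held one at 10026 bp, which is 2 of 22 (9.09%).

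Chromatin modifiers mutated in DLBCL had 4 of 16 genes (25.0%) and MHC class II genes also 4 of 16. SMARCA4, a remodelling ATPase, had a member at 6126 bp, and KMT2D, a histone methyltransferase, held one at 10790 bp. MEF2B held one at 23454 bp, but it is a transcription factor and not itself a modifier, and is also counted on the germinal centre list. DNMT3A, a DNA methyltransferase, held the one with the IRF match at 39456 bp. CIITA, the master activator of MHC class II, had a member at 34796 bp. HLA-DQB1 and HLA-DQA1 shared a member at 17017 and 47980 bp, and RFXANK shared that of MEF2B at 45449 bp.

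P-TEFb, pausing and elongation form the machinery that the inhibitor acts on. Of its 35 listed genes 2 (5.71%) had a member within 50 kb, a share near the 7.07% of all protein-coding genes: CDK9 itself at 8684 bp and ELL3, an elongation factor, at 11722 bp. Both members were nearest to another gene, SH2D3C and SERF2, and were in neither 3 h list. The 19 heat shock response genes had 0.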

How the data were processed

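The processing notes and methods of the authors name Bowtie2 (alignment to hg19), MACS2 (peaks of each library), bedtools (merging) and DESeq2 (each treated time against 0 h of the same line). Mitochondrial, duplicate and non-unique reads had been discarded. The deposited lists give coordinates of called regions in base pairs, a unit of position, with 0 columns of per-sample values; how the transposase offset and the 2 library protocols were handled is not given in the sources used here. From the lists, members, distances, base composition and motif matches were computed with Python 3.11.15, numpy 2.4.6, scipy 1.17.1 and pysam 0.24.0 on GRCh37 and GENCODE 44 lifted to it, whose chromosome lengths hold every region. Distances run from the nearest region edge. Motifs were fixed consensus sequences with 0 mismatches, except CTCF, IRF, SpiB and the heat shock element with 1. Shares were tested with the two-sided Fisher exact test and Benjamini-Hochberg adjustment over 32 motif and 8 location tests at a threshold of 0.05. Odds ratios were computed after adding 0.5 to every cell, with 95% Wald intervals. Scripts were tested on simulated data. Named genes were 10 of those nearest to the most members (ties taken in order of symbol), up to 4 per list by distance, those of the extreme members, and for the SP/KLF sequences listed genes nearest to a member with that motif, which was more frequent than in closed regions; the other sequences were chosen after their values were seen. The members, gene lists and tests were chosen with earlier results of these data known. Regions outside the lists were not used here, so the total number tested is unknown. Sequences on chromosome 8 were not considered for display. A few items are not reported here.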

Additional observations from a re-analysis of the deposited data

How the results depend on the processing

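Of 135 alternative values, 104 changed neither direction nor significance, or moved by less than the limit set for them. The count of members did so under each definition run, from 706 to 933. Their share of the 1712 regions moved to 43.1% with a promoter limit of 2500 bp, 51.2% with distance from the midpoint, 41.2% with all annotated transcripts and 54.5% with protein-coding genes only. The number of motifs past the threshold against closed regions rose from 3 to 8 over whole regions and to 6 in 400 bp. Against VAL-only regions it rose from 3 to 6 over whole regions and was 1 without chromosome 19. Genes with a member near a TSS numbered 671 at 20 kb and 2447 at 100 kb, as wider limits must give. Odds ratios that crossed 1 were, over whole regions, OCT (0.890) and CTCF (1.19) against closed regions, and SP/KLF (1.04), IRF (1.04), SpiB (1.00) and RUNX (1.42, adjusted Fisher exact p = 0.000398) against VAL-only regions, and, within GC classes, SP/KLF against closed regions (0.739). Of these, only the SP/KLF values had been past the threshold. The cause of these changes was not tested. No paired analysis was possible because the lists give coordinates only; leaving out replicates and stricter thresholds could not be run for the same reason.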
